A study of Mus musculus with 11 samples.

Results

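The mitochondrial respiratory chain is a series of protein complexes in the inner mitochondrial membrane that pass electrons from NADH and succinate to oxygen, while ATP synthase uses the proton gradient so formed to make ATP. Most subunits are encoded in the nucleus, a small core set is encoded by mitochondrial DNA, and dedicated assembly factors insert cofactors and join the modules. Nearly all cells use this machinery, in the dental epithelium and the mesenchyme alike.

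Its genes were taken by symbol from the expression table of E14.5 maxillary molar tooth germs (names starting with Nduf, Sdha to Sdhd, Uqcr, Cox followed by a digit, or Atp5, without Ndufa4l2). This gave 98 of 16755 genes, and all 98 were placed in a complex. Complex I (NADH dehydrogenase) held 43, complex II (succinate dehydrogenase) 6, complex III (cytochrome bc1) 8, complex IV (cytochrome c oxidase) 24 and ATP synthase 17. By role, 74 were subunits, 19 were assembly or supercomplex factors, 3 were tissue isoforms of complex IV and 2 were other relatives of ATP synthase genes. Of the 13 subunits encoded by mitochondrial DNA, 0 were found by symbol among the 16755 genes, so they could not be analysed.

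The libraries came from 4 wild-type (Cilk1+/+), 4 Cilk1-/- and 3 Cilk1-/-;PCS1-MRCS1 del/del replicates, the last being named compound mutant here. Cilk1 encodes a kinase of primary cilia, exon 6 of which was deleted in the germline by EIIa-Cre, and the compound mutant adds a homozygous deletion of 70 kb that removes the oral Shh enhancers PCS1 and MRCS1 and the sequence from one to the other. All mice were on a C57BL/6 background and sexes were mixed. Each replicate was given as n = 6, without the unit counted. The deletion of PCS1-MRCS1 without loss of Cilk1 was not among these libraries, so its own effect cannot be told apart from its effect in a Cilk1-/- background.

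Values were taken to be on a log2(value + 1) scale, the value being normalised by depth and, by the authors' methods, by gene length. If this holds, levels of different genes may be set side by side. Turned back from the log2 scale, the values of a library summed to between 339970 and 364615. Counts were not used here and the depth is unknown, so precision rests on the spread between libraries. Ick, the symbol under which Cilk1 is listed, was 3.47, 3.58, 3.45 and 3.60 in wild type, between 2.72 and 2.86 in Cilk1-/- and from 2.60 to 2.67 in compound mutants (log2 fold changes of −0.73 and −0.89, adjusted p = 0.000224 and 6.22e-05, limma). Wild-type and Cilk1-/- libraries of the same number deviated in opposite directions from their genotype means over all genes (correlations of −0.74, −0.89, −0.85 and −0.79), so same-numbered libraries were not independent of each other, and they are called pairs here. The compound mutant libraries share their protocol label with pair 4, and a fit with the pair as a block, holding the compound mutant in the block of pair 4, is given beside the calls. In that fit Ick had an adjusted p of 0.0364 in Cilk1-/- and of 0.109 in the compound mutant (limma). Compound mutant replicate 1 stood apart, with neuron markers a median of 2.19 above wild type, dental epithelium markers at −1.0 and dental mesenchyme markers at −0.83 on the log2 scale. Replicate 3 of the compound mutant differed too, with erythroid (red blood cell) markers at −1.3, dental mesenchyme markers at −0.41 and dental epithelium markers at 0.39. All 10 markers of dental epithelium and all 10 of dental mesenchyme were listed above 0 in wild type, with medians of 5.36 and 6.16.

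The respiratory chain genes were among the most abundant transcripts of the tooth germ. In wild type 69 of the 98 lay in the highest 10% of genes, at a level of 5.35 or more, and their median level was 5.87 against 3.02 for all genes. Together they made up 2.14% ± 0.0794 (SD, n = 4) of the summed wild-type values. The share was 2.09% ± 0.0433 (SD, n = 4) for Cilk1-/- libraries and 2.09% ± 0.0630 (SD, n = 3) for compound mutants. These shares ranged from 2.06% to 2.21%, from 2.04% to 2.14% and from 2.01% to 2.13%, so the genotypes overlapped.

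Level followed role. Median wild-type levels were 7.30 for ATP synthase subunits, 7.23 for complex IV subunits, 6.25 for complex III, 6.11 for complex II, 5.83 for the core and 5.74 for the supernumerary subunits of complex I. Assembly factors lay lower, at 3.28 for complex I and 3.88 for complex IV. Atp5b, the catalytic beta subunit of ATP synthase, was the highest of all at 8.69 ± 0.025 (SD, n = 4), followed by Cox4i1, a structural subunit of complex IV, at 8.37 ± 0.0736, and Atp5a1, the alpha subunit, at 8.29 ± 0.0369. The lowest in each complex were Ndufaf5 (2.44, complex I assembly), Sdhaf2 (3.39, which helps attach flavin to Sdha), Uqcrfs1 (5.75, the Rieske iron-sulfur protein of complex III), Cox7a1 (1.11, the heart and muscle isoform) and Atp5s (2.60). Ndufb8 of complex I was at 6.57, and in complex III the pair at the top were Uqcrh at 7.30 and Uqcrc1 at 6.81. Neighbours in this order often lay closer than their spread: Ndufb8 and Ndufa3, at 6.57 ± 0.0705 and 6.56 ± 0.145 (SD, n = 4), differed by less than the SD of either.

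**Figure D1:**
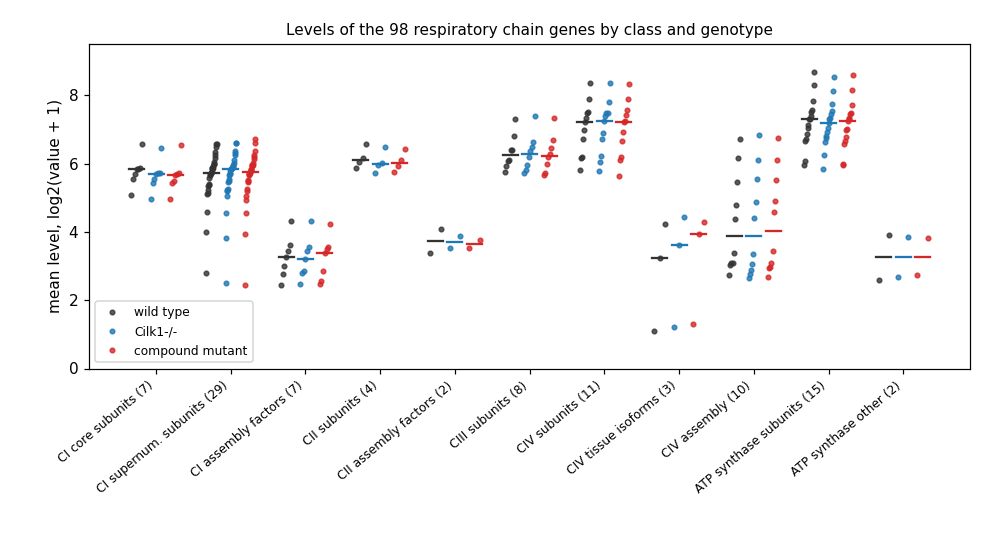
Mean level of each of the 98 genes, log2(value + 1), by class (number of genes in brackets) for wild type (black), Cilk1-/- (blue) and the compound mutant (red), with a bar at the class median. ATP synthase and complex IV subunits have wild-type medians of 7.30 and 7.23, complex I assembly factors one of 3.28, and the 3 genotypes lie side by side in every class.

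Promoters are shown to give the sequence context of Cox10 and Sdhaf1, which passed a test, and of Sdha, the catalytic subunit of complex II. Ndufaf6, the other member that passed, has no entry. RefSeq promoter windows (GRCm38.p6, 250 bases before to 50 after each start) were matched by symbol for 80 of the 98 genes. They were searched on both strands for the letters of motifs of nuclear respiratory factor 1 (NRF1, whose letters are the longer matches in Sdha below, with any base at the place where they differ), of YY1, of the GABP family, CCGGAAG, of estrogen-related receptors (ERR), TCAAGGTCA, and for the general CCAAT box. Each window below runs from 250 bases before to 30 after the start, lies on the minus strand and is written 5′ to 3′ with the matches in capitals, at chr11:64079443-64079722 (Cox10), chr7:30322346-30322625 (Sdhaf1) and chr13:74350211-74350490 (Sdha).
Cox10: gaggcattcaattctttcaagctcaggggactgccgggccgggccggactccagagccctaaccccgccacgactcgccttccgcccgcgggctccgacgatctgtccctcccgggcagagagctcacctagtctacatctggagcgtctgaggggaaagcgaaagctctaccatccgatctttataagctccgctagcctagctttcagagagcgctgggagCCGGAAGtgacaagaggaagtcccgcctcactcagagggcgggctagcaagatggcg
Sdhaf1: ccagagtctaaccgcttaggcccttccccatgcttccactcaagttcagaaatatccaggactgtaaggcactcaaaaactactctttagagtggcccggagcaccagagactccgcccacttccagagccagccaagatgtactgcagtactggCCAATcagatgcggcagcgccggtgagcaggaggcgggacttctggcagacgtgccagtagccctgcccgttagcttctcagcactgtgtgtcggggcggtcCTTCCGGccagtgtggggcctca
Sdha: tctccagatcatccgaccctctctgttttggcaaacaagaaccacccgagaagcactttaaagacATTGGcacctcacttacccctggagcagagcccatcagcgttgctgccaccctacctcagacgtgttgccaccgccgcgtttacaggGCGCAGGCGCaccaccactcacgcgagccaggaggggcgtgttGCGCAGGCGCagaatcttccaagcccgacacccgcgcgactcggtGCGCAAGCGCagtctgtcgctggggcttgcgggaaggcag

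In Cox10 the capitals mark a GABP match 27 bases before the start, and a YY1 match from base 22 to base 32 after it runs past the end of the printed window. Sdhaf1 held a CCAAT box 95 bases before the start and a GABP match on the reverse strand from base 8 after it. The Sdhaf1 window lies inside the gene span given for it below, so the start used here is not the outer end of that span. Sdha held 3 NRF1 matches, the nearest ending at the base before the start, and a CCAAT box on the reverse strand. Of the 80 genes, 19 (23.8%) held the NRF1 letters in any of their windows, against 9.78% of the 12067 table genes with a window. Of all 32851 windows, each counted singly, 4.60% held them, so this share is not like those over genes. The other motifs follow in the same order. GABP letters stood in 24 (30%) against 17% and 8.86%, YY1 letters in 5 (6.25%) against 1.48% and 0.633%, and ERR letters in 2 (2.5%) against 0.34% and 0.423%. CCAAT stood in 34 (42.5%) against 42.2% and 37.4%. Median GC content was 58.8% in the member windows and 60.3% over the table genes. These are counts of letters and no test was made.

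Loss of Cilk1 left the respiratory chain genes close to their wild-type levels. With an adjusted p below 0.05 and at least a 1.5-fold difference (limma, one fit over the 3 genotypes, Benjamini-Hochberg over all genes), 0 of 98 rose and 0 fell, where 0.155% of all genes rose and 0.215% fell. With the adjusted p alone 0 rose and 1, Cox10, fell, against 1.06% and 1.38% of all genes. The number that fell was 14 (7.94% of all genes) with these genotypes fitted alone, 5, 8 and 4 without compound mutant replicate 1, 2 and 3 (2.79%, 4.23% and 3.34%), and 0 without wild-type replicate 3 or 4 or Cilk1-/- replicate 2, 3 or 4. At an unadjusted p under 0.05, 3 lay above and 21 below wild type, where 9.57% and 11.1% of all genes did. The 95% interval lay within 1.5-fold in either direction for 96 of the 98. The others were Cox4i2 and Ndufs5, with or without the pair 4 block. Fold changes ran from −0.29 to 0.40 on the log2 scale, 91 of 98 were smaller than 0.2 in size, and the median was −0.036 against 0.0032 for all genes. With quantile normalization that median was −0.0012, with 50 genes below and 48 above wild type in place of 64 and 34. With the pairs as a block (compound mutant in the block of pair 4), 0 rose and 0 fell at an adjusted p under 0.05 (0.0119% of all genes each way), and 2 lay above and 11 below at an unadjusted p under 0.05 (4.55% and 5.70%). With the block by number 0 passed (0.0179% each way).

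The compound mutant gave a similar picture against the same wild-type libraries, so these comparisons are not independent. With the fold rule 0 of 98 rose and 0 fell (0.615% and 0.633% of all genes). With the adjusted p alone 0 rose and 2 fell, Ndufaf6 and Sdhaf1, where 2.82% and 3.75% of all genes did. With these genotypes fitted alone 0 rose and 0 fell (0.0836% and 0.161% of all genes). Without compound mutant replicate 2 the count that fell was 15 (10.4% of all genes), and without its replicate 1 or 3 it was 0 (2.64% and 4.87%), as it was without any 1 wild-type library or Cilk1-/- replicate 3 or 4. At an unadjusted p under 0.05, 3 lay above and 16 below, against 12.9% and 13.8%. The interval lay within 1.5-fold for 94, the others being Cox4i2, Ndufa12, Ndufaf6 and Ndufs5. The median log2 fold change was −0.055 against −0.0016 for all genes, and −0.018 without compound mutant replicate 1, which held the lowest value of all libraries for 35 of the 98 genes (17.6% of all genes). With the block holding the compound mutant in pair 4, 0 passed (0.0% of all genes), and 3 lay above and 2 below at an unadjusted p under 0.05 (3.41% and 4.21%). In that fit the interval lay within 1.5-fold for 91, with Cox7a1, Ndufaf3 and Sdhaf1 also outside. The block by number gave 0 members, where 0.0477% of all genes rose and 0.119% fell.

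**Figure D2:**
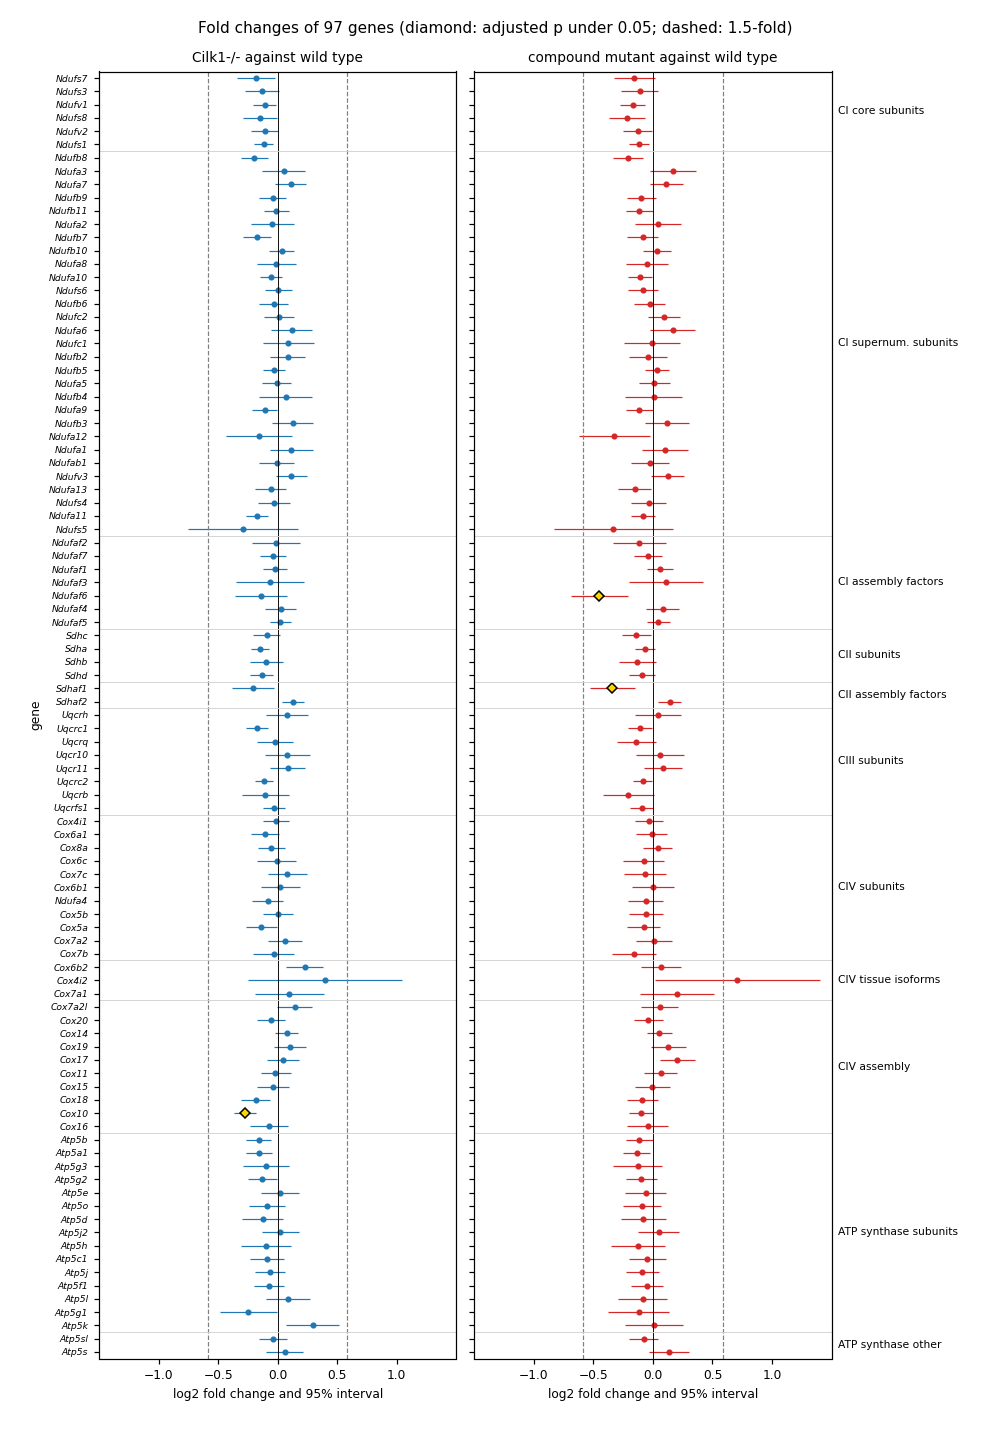
Log2 fold change (points) and 95% interval (lines) of 97 of the 98 genes in Cilk1-/- (left) and the compound mutant (right) against wild type, by class, with dashed lines at 1.5-fold and diamonds for an adjusted p under 0.05. One diamond (Cox10) stands on the left and those of Ndufaf6 and Sdhaf1 on the right, and the intervals of Cox4i2 and Ndufs5 cross a dashed line in each panel, with Ndufa12 and Ndufaf6 on the right. Intervals and diamonds are from the fit without the block.

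Cox10, which makes the heme A precursor for complex IV, lies at chr11:63962627-64079468 (GRCm38, minus strand). It was 3.05, 2.97, 3.04 and 3.09 in wild type, 2.79, 2.80, 2.74 and 2.73 in Cilk1-/- and 2.92, 2.99 and 2.90 in the compound mutant. All 4 Cilk1-/- libraries lay below all wild-type and all compound mutant libraries. The log2 fold change in Cilk1-/- was −0.27 (standard error 0.0418, adjusted p = 0.0158, limma), and the difference was −0.24 over pairs 1 to 3 and −0.36 in pair 4. With the pair as a block the adjusted p was 0.296 (0.160 with each compound mutant library in the block of its number), and it was above 0.05 without wild-type replicate 3 or 4 or Cilk1-/- replicate 2, 3 or 4. The compound mutant stood −0.10 from wild type (adjusted p = 0.192, limma) and 0.17 above Cilk1-/- (adjusted p = 0.0614, limma).

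Ndufaf6, a complex I assembly factor at chr4:11051045-11076205 (minus strand), was 2.88, 3.13, 2.95 and 3.03 in wild type, 3.01, 2.67, 2.91 and 2.84 in Cilk1-/- and 2.51, 2.78 and 2.36 in the compound mutant. Compound mutants lay below every wild-type library, while Cilk1-/- overlapped both. The log2 fold change was −0.45 (standard error 0.108, adjusted p = 0.0377, limma) for the compound mutant and −0.14 (adjusted p = 0.469) in Cilk1-/-. With the block the adjusted p in the compound mutant was 0.649 (0.163 by number), and of 11 fits that left out a library it was below 0.05 in 3, those without compound mutant replicate 2, Cilk1-/- replicate 1 or Cilk1-/- replicate 2.

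Sdhaf1, which protects the iron-sulfur subunit Sdhb during complex II assembly, lies at chr7:30321406-30323895 (minus strand). Its levels were 4.01, 4.20, 4.06 and 4.09 in wild type, 4.0, 3.76, 3.92 and 3.84 in Cilk1-/-, and 3.82, 3.89 and 3.54 in the compound mutant. Both mutants lay below every wild-type library, narrowly in Cilk1-/- replicate 1. The log2 fold change was −0.34 (standard error 0.0865, adjusted p = 0.0451, limma) for the compound mutant and −0.21 (adjusted p = 0.174) in Cilk1-/-. The block gave 0.654 in the compound mutant (0.163 by number), and of the 11 fits the adjusted p was below 0.05 only without compound mutant replicate 2. Sdhaf2 lay the other way, from 3.37 to 3.41 in wild type, from 3.48 to 3.56 in Cilk1-/- and at 3.44, 3.56 and 3.60 in the compound mutant, without passing the test (log2 fold changes of 0.13 and 0.14, adjusted p = 0.121 and 0.0833, limma).

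**Figure D3:**
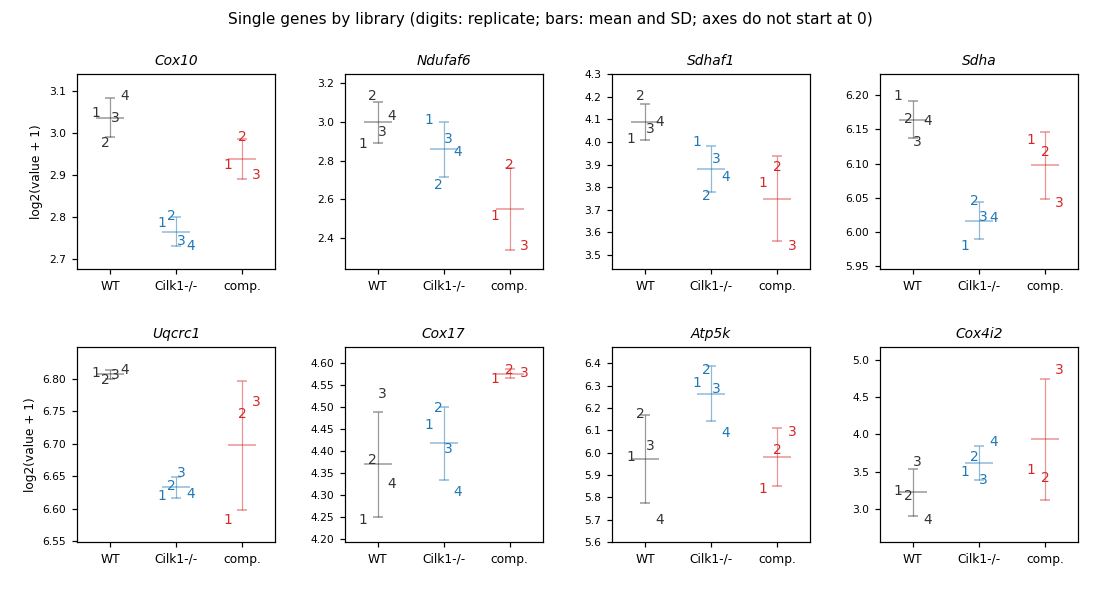
Levels, log2(value + 1), of 8 genes in each library, with digits giving the replicate number and bars the mean and SD of wild type (black), Cilk1-/- (blue) and the compound mutant (red). Axes do not start at 0. Cox10 is between 2.73 and 2.80 in Cilk1-/-, apart from the other genotypes, and Cox4i2 reaches 4.87 in compound mutant replicate 3 alone.

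In complex I the core subunits, which carry the flavin and iron-sulfur clusters, lay slightly below wild type. Their log2 fold changes had a median of −0.12 for Cilk1-/- (7 of 7 below 0) and of −0.13 for the compound mutant (7 of 7 below 0), and 0 of 7 passed the test in either. The medians stayed below 0 under each scaling tried, at −0.078 and −0.10 with quantile normalization, and without compound mutant replicate 1 its count was 6 of 7. Ndufv1, the flavin subunit, was between 5.81 and 5.87 in wild type, between 5.71 and 5.76 in Cilk1-/- and at 5.66, 5.77 and 5.56 in the compound mutant. Neither mutant overlapped wild type for Ndufv1 (adjusted p = 0.194 and 0.0601, limma).

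The 29 supernumerary subunits, which surround the core, showed no common direction. Their medians were −0.011 in Cilk1-/- and −0.028 in the compound mutant, with 17 of 29 below wild type in each, but 0.046 and 0.00072 with quantile normalization, and 0.034 in the compound mutant without its replicate 1. Ndufb8 was 6.48, 6.62, 6.64 and 6.56 in wild type, between 6.34 and 6.45 in Cilk1-/- and at 6.32, 6.47 and 6.30 in the compound mutant. Neither mutant overlapped wild type, at −0.20 and −0.21 on the log2 scale (adjusted p = 0.0725 and 0.0516, limma). Ndufa3 stood highest in the compound mutant, at 6.59, 6.73 and 6.86 against 6.38 to 6.72 in wild type. Ndufs5 had the highest SD of the 98 genes in wild type, 0.404, with levels from 2.32 to 3.14. Its difference in Cilk1-/- was −0.56 over pairs 1 to 3 and 0.54 in pair 4, and its interval ran from −0.75 to 0.17. Ndufa12 was 0.32 below wild type in the compound mutant (5.19, 5.74, 5.17 and 5.35 against 4.93, 5.17 and 5.01), with an adjusted p of 0.161 (limma).

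Of the 7 complex I assembly factors, none but Ndufaf6 passed the test. Ndufaf3, which acts with Ndufaf4 early in assembly, was 3.71 in compound mutant replicate 1, above all other libraries (3.02 to 3.52), and 3.11 and 3.34 in the other compound mutant libraries.

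Complex II, which also belongs to the citric acid cycle, has 4 subunits, and each lay below wild type in each mutant without passing the test. Sdha, the flavin subunit at chr13:74322254-74350280 (minus strand), was 6.20, 6.17, 6.13 and 6.16 in wild type, 5.98, 6.05, 6.02 and 6.02 in Cilk1-/- and 6.13, 6.12 and 6.04 in the compound mutant. The Cilk1-/- libraries lay below all wild-type libraries, and the compound mutant overlapped wild type. Sdha stood at a log2 fold change of −0.15 for Cilk1-/- (standard error 0.0351, adjusted p = 0.0551 by limma) and of −0.067 for the compound mutant (adjusted p = 0.281). Sdhb, Sdhc and Sdhd, the iron-sulfur and membrane subunits, differed by −0.095, −0.092 and −0.14 in Cilk1-/- and by −0.13, −0.14 and −0.094 in the compound mutant. The class medians were −0.12 and −0.11, and −0.069 and −0.081 with quantile normalization.

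In complex III, Uqcrc1, a core structural subunit, was unusually even in wild type, at 6.81, 6.80, 6.81 and 6.81 (the lowest SD of the 98 genes, 0.0066). It was 6.62, 6.63, 6.65 and 6.62 in Cilk1-/- and 6.58, 6.75 and 6.76 in the compound mutant. Both mutants lay wholly below wild type, with log2 fold changes of −0.17 (adjusted p = 0.0612, limma) and −0.11 (adjusted p = 0.169). Uqcrh, at the hinge to cytochrome c1, differed by 0.078 and 0.044. Over the 8 subunits the median was −0.028 in Cilk1-/-, or 0.026 with quantile normalization, and −0.091 in the compound mutant.

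The complex IV subunits lay near 0, with medians of −0.015 in Cilk1-/-, or 0.025 with quantile normalization, and −0.057 in the compound mutant, or −0.0048. Cox4i1 and Cox6a1 differed by −0.015 and −0.11 in Cilk1-/- and by −0.030 and −0.011 in the compound mutant. The tissue isoforms, which replace ubiquitous subunits in lung, muscle or testis, each had positive fold changes in both mutants and none passed the test, Cox7a1 turning to −0.0064 in Cilk1-/- without wild-type replicate 4. Cox4i2, the isoform of Cox4i1 linked to oxygen response, was 3.24, 3.17, 3.62 and 2.86 in wild type, 3.49, 3.69, 3.39 and 3.90 in Cilk1-/- and 3.52, 3.41 and 4.87 in the compound mutant. The genotypes overlapped, and compound mutant replicate 3 stood alone. The log2 fold changes were 0.40 (interval −0.25 to 1.04, adjusted p = 0.482, limma) and 0.71 (interval 0.014 to 1.40, adjusted p = 0.181).

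Cox6b2, listed with testis, was between 4.13 and 4.29 in wild type and between 4.3 and 4.52 in Cilk1-/-. These did not overlap, but narrowly, at 4.291 in wild-type replicate 2 and 4.297 in Cilk1-/- replicate 4. Its partner Cox6b1 differed by 0.023. In the compound mutant Cox6b2 was 4.33, 4.41 and 4.12. The log2 fold change in Cilk1-/- was 0.23 (adjusted p = 0.109, limma), with 0.29 over pairs 1 to 3 and 0.036 in pair 4. Cox7a1 was 0.80 in wild-type replicate 4 and 1.17 to 1.23 in the other wild-type libraries, against 1.07 to 1.47 in both mutants, and its partner Cox7a2 differed by 0.058 and 0.0098. Skeletal muscle markers, where Cox7a1 is also used, lay a median of 0.53 above wild type in Cilk1-/- (11 of 11 higher, none passing the test) and −0.37 from it in the compound mutant, and the part of muscle in these values was not tested.

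Among the 10 complex IV assembly and supercomplex factors, Cox10 alone passed the test. Cox17, a copper chaperone, was 4.57, 4.59 and 4.58 in the compound mutant, above all libraries of both other genotypes (4.25 to 4.53). Its log2 fold change against wild type was 0.21 (standard error 0.0658, adjusted p = 0.0844, limma). Cox7a2l, a supercomplex factor, was higher in all 4 Cilk1-/- libraries (6.79 to 6.91) than in wild type (6.60 to 6.79), by 0.14 (adjusted p = 0.253, limma). The separation was narrow, with 6.788 in Cilk1-/- replicate 4 and 6.787 in wild-type replicate 2. Cox18, which inserts part of Cox2 into the membrane, was between 2.81 and 2.96 in Cilk1-/- and between 3.02 and 3.11 in wild type (−0.18, adjusted p = 0.0992, limma).

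For ATP synthase, 11 of 15 subunits lay below wild type in Cilk1-/- and 13 of 15 in the compound mutant, with medians of −0.092 and −0.091, and −0.035 and −0.044 with quantile normalization. Without compound mutant replicate 1 that median was −0.016, with 10 of 15 below wild type. None of them passed the test. Atp5b was 8.68, 8.68, 8.73 and 8.68 in wild type, 8.53, 8.57, 8.49 and 8.53 in Cilk1-/- and 8.51, 8.68 and 8.54 in the compound mutant. The Cilk1-/- libraries were all below wild type (−0.16, adjusted p = 0.0990, limma). Atp5a1 was alike, at −0.16 in Cilk1-/- and −0.14 in the compound mutant. Atp5g1, for a ring subunit, was at −0.25 in Cilk1-/- (adjusted p = 0.226, limma).

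Of the 4 subunits above wild type in Cilk1-/-, Atp5k, the small subunit e, had the highest fold change. It was 5.98, 6.17, 6.03 and 5.70 in wild type, 6.31, 6.37, 6.28 and 6.09 in Cilk1-/- and 5.84, 6.01 and 6.09 in the compound mutant. Wild type and Cilk1-/- overlapped between pairs, but within each of the 4 pairs Cilk1-/- was higher. The log2 fold change was 0.29 in Cilk1-/- (adjusted p = 0.139, limma). In compound mutants it was 0.0089 without the block and 0.23 with it (interval 0.0090 to 0.457, adjusted p = 0.654, limma). Atp5s differed by 0.060 and 0.13.

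**Figure D4:**
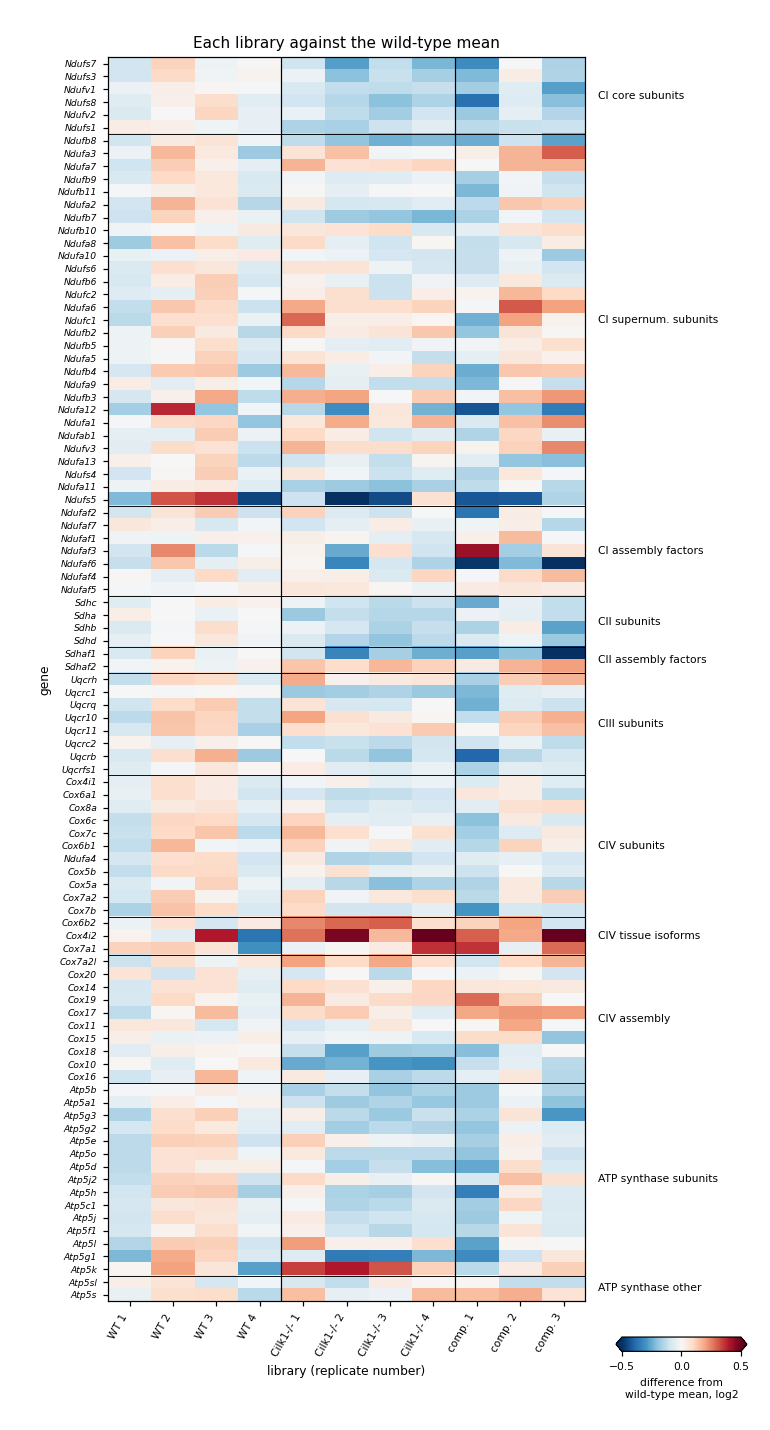
Difference of each library from the wild-type mean, log2, for 97 of the 98 genes ordered by class and by wild-type level (blue below, red above, colours saturating at 0.5). Wild-type replicates 1 and 4 lie mostly below and 2 and 3 mostly above their mean, and compound mutant replicate 1 has a median of −0.13 over the 98 genes.

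The plot of single libraries shows that whole libraries moved together across the members. The median difference from the wild-type mean over the 98 genes was −0.075, 0.073, 0.064 and −0.047 in the wild-type libraries, 0.025, −0.047, −0.083 and −0.056 in Cilk1-/- and −0.13, 0.036 and −0.067 in the compound mutant. Each group thus held libraries on both sides of 0, and the range within wild type was larger than any difference between genotype medians. In bulk tooth germs, fewer cells of a kind and less RNA per cell cannot be told apart.

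Between wild type and Cilk1-/- the libraries did not overlap for 15 members below and 3 above wild type, where 10.7% and 10.2% of all genes lay so. In the compound mutant 8 lay below and 3 above (9.05% and 8.92% of all genes). Between the mutants 1 lay below in the compound mutant and 3 above (9.30% and 7.74%). Those below in Cilk1-/- were Atp5a1, Atp5b, Cox10, Cox18, Ndufa11, Ndufb8, Ndufs1, Ndufs7, Ndufs8, Ndufv1, Sdha, Sdhaf1, Sdhd, Uqcrc1 and Uqcrc2, and those above Cox6b2, Cox7a2l and Sdhaf2.

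Adding the enhancer deletion to the loss of Cilk1 moved no member past the test. Against Cilk1-/-, 0 of 98 passed the fold rule in the compound mutant (0.155% of all genes rose and 0.388% fell) and 0 passed with the adjusted p alone (1.18% rose and 2.15% fell). At an unadjusted p under 0.05 there were 2 above, Cox10 and Cox17, and 2 below, Atp5k and Ndufaf6, where 10.9% and 12.3% of all genes lay so. The interval lay within 1.5-fold for 97 of 98, all but Cox4i2. With the block holding the compound mutant in pair 4, 0 passed with the adjusted p (0.0% of all genes), and at an unadjusted p under 0.05 there were 1 above, Cox17, and 0 below (2.23% and 3.72% of all genes). In that fit the interval lay within 1.5-fold for 93, with Cox7a1, Ndufaf3, Ndufaf6 and Ndufs5 also outside. Atp5k lay 0.28 below Cilk1-/- (standard error 0.109, adjusted p = 0.158, limma) and 0.060 below with the block. Atp5l, another small subunit, lay 0.17 below without overlap (6.39, 6.66 and 6.65 against 6.68 to 6.86).

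The members are short, with a median of 1795 bp of summed exon length over the 96 with a position, against 4157 bp over 15923 genes. Across the members, length and log2 fold change had Spearman correlations of −0.27 (Cilk1-/-) and −0.20 (compound mutant), and 0.084 and −0.024 across all genes. Genes share the libraries and are no replicates, so no test was made. The core subunits of complex I had a median length of 2178 bp and the supernumerary ones of 1251 bp, so role and length go together here.

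**Figure D5:**
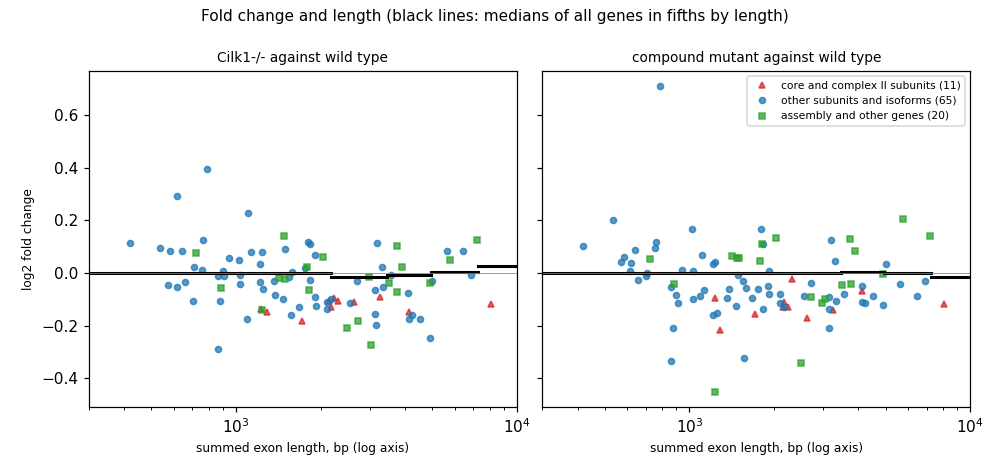
Log2 fold change against summed exon length (log axis, bp) for the 96 members with a position, in Cilk1-/- (left) and the compound mutant (right) against wild type. Triangles are core subunits of complex I and complex II subunits, circles other subunits and isoforms, squares assembly and other genes, and black lines the medians of all genes in 5 bins of length, which lie at most 0.027 from 0.

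Genes of neighbouring functions gave calls in single genes, and some of their lists lay mostly below wild type. Of 32 further assembly factors outside the naming rule, 0 passed the test in Cilk1-/- (1.06% of all genes rose and 1.38% fell). In the compound mutant Higd1a and Pet117 rose and Coa6 and Ecsit fell, where 2.82% of all genes rose and 3.75% fell. Higd1a, a hypoxia-induced supercomplex factor, rose by 0.44 (adjusted p = 0.0306, limma) and Ecsit fell by 0.22 (adjusted p = 0.0205). Against Cilk1-/- Higd2a stood 0.25 higher in compound mutants (adjusted p = 0.0385, limma), where 1.18% of all genes rose. In the citric acid cycle (16 genes) Cs, citrate synthase, fell in Cilk1-/- (−0.18, adjusted p = 0.0435, limma), where 1.38% of all genes fell. Fh1, fumarase, fell in the compound mutant (−0.19, adjusted p = 0.0196, limma), where 3.75% of all genes fell. List medians were −0.089 and −0.042, with 14 of 16 below wild type in Cilk1-/- and 12 in the compound mutant. Libraries lay wholly below wild type for 9 and 4 of the 16 (10.7% and 9.05% of all genes). Of 77 mitochondrial ribosome genes 3 fell in Cilk1-/- (1.38% of all genes) and 4 in the compound mutant (3.75% of all genes), Mrpl2 by 0.27 in each. List medians were −0.074 and −0.072, with 61 of 77 below wild type in Cilk1-/- and 57 in the compound mutant. Libraries lay wholly below wild type for 18 and 7 of the 77 (10.7% and 9.05% of all genes). Of 17 regulators of mitochondrial gene expression Polg2 alone passed in Cilk1-/-, rising by 0.23 (adjusted p = 0.0479, limma), where 1.06% of all genes rose. Nrf1 differed by −0.17 in each mutant (adjusted p = 0.0675 and 0.0579, limma) and Ppargc1a by 0.28 and 0.33 at a wild-type level of 0.90. Of 11 other chain genes, cytochrome c and its partners among them, none passed. With the block of pairs none of these calls remained (adjusted p of at least 0.268). Cytosolic ribosomal genes (76) had medians of 0.099 and 0.018, with 68 of 76 above wild type in Cilk1-/- and 44 in the compound mutant. In Cilk1-/- 0 were called. Rpl34 and Rps27 were higher in the compound mutant without the block (adjusted p = 0.358 and 0.614 with it, limma), where 2.82% of all genes rose. The highest log2 fold change of the 76 there was 3.71, also the highest of all genes. Rps27 stood at 3.27 in wild type, against a list median of 9.27. The cause was not tested.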

How the data were processed

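Total RNA of maxillary molar tooth germs was poly-A selected and sequenced. Per the labels and methods, the authors mapped reads with HISAT2 2.0.5 to mm10, counted them per gene with featureCounts 1.5.0-p3 and calculated FPKM. The deposited table holds log2 values of 16755 genes in 11 libraries, which the authors gave without counts. Their scale was taken as log2(value + 1) of probably FPKM, and depth is unknown. Of these genes 257, none of them a member, hold a value below 0, which log2(value + 1) alone does not give, so a further adjustment by the authors cannot be told apart from the scale. No column of per-sample values was left unused.

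Genotypes were compared with limma 3.58.1 (R 4.3.3, lmFit, eBayes with trend and robust, one fit over 3 genotypes, Benjamini-Hochberg over all genes). The test was tried on simulated data first. The simulated libraries were independent and had the same spread in each genotype. That trial therefore could not show effects of dependent libraries or of unequal spread. Whether samples of a group are separate litters is not stated, so p-values measure the spread between these libraries. The fit without the block takes the libraries as independent, which same-numbered wild-type and Cilk1-/- libraries were not. Its p-values for Cilk1-/- against wild type can thus be too small and its intervals too narrow. The median half-width of these intervals was 0.134 on the log2 scale, and 0.172 with the compound mutant in the block of pair 4. The fit also shares its estimate of spread among the 3 genotypes. The median SD over all genes was 0.0748 in wild type, 0.073 in Cilk1-/- and 0.133 in compound mutants. Its p-values for compound mutant comparisons can thus also be too small and those intervals too narrow. WT and Cilk1-/- libraries of one number deviated oppositely (correlations above), and 84 genes with exact 0 values had them in both libraries of number 1 (55), 2 (12) or 3 (17). The labels do not say that numbers pair samples. Alternatives were pair blocks, the 2 genotypes compared alone, library set, plain eBayes, a mean of at least 1, quantile normalization, a pseudocount of 0.1, centring on medians and leaving out each library. A block holding the compound mutant in pair 4 without its replicate 1 was chosen after seeing the data.

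Members, lists and named genes were chosen with earlier results of these data known. Named were the highest 2 and lowest 1 per complex in wild type, called genes, the 4 highest and 4 lowest per comparison, complex IV isoforms with partners and complex II subunits; other names were added after their values were seen. Some named results are not reported here. Positions come from GENCODE (GRCm38) and promoters from RefSeq (GRCm38.p6). Figures were drawn with Python 3.11.15 and matplotlib 3.10.9.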

Additional observations from a re-analysis of the deposited data

Results flagged for a closer look

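Among 68 groups of 4 libraries checked for a lone library, 3 stood out, where chance gives about 1 in 20, and 2 of them are given here. Atp5b was 8.73 in wild-type replicate 3 and 8.68 at most in the other wild-type libraries. Cox7a1 was 0.80 in wild-type replicate 4 against 1.17 to 1.23 in the others. Neither cause nor source was tested.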

How the results depend on the processing

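Of 903 alternative values over 43 results, 811 kept their direction and side of the threshold or moved by less than the spread. Counts of members were taken as kept if equal or within 1.5-fold of each other. Some values could not move, since leaving out a compound mutant library or adding the pair block leaves fold changes of Cilk1-/- against wild type unchanged. The 811 are therefore no measure of stability. Under no setting did any of the 98 genes pass the fold rule. With the replicate block, by number or with the compound mutant in pair 4, 0 members fell in Cilk1-/- and 0 in the compound mutant, and 0 did with that block without compound mutant replicate 1, where the median of members in the compound mutant was 0.0164. With the genotypes compared alone, 2 rose and 14 fell in Cilk1-/- (7.24% and 7.94% of all genes) and 0 fell in the compound mutant (0.161%). With library set as a term 0 fell in the compound mutant. Plain eBayes gave 2 lower in Cilk1-/- and 1 higher in the compound mutant against Cilk1-/-, and quantile normalization gave 2 lower in Cilk1-/-. Leaving out 1 library gave 0 to 1 higher and 0 to 8 lower in Cilk1-/- (8 without compound mutant replicate 2, where 4.23% of all genes fell), 0 to 1 higher and 0 to 15 lower in the compound mutant (15 without its replicate 2, where 10.4% of all genes fell), and 0 to 1 in each direction between the mutants. Cox10 passed in 6 of 11 such fits (adjusted p of 0.00938 to 0.0662, limma), Ndufaf6 in 3 (0.00687 to 0.102) and Sdhaf1 in 1 (0.0148 to 0.112). Directions turned for Atp5k between the mutants with the pair 4 block without compound mutant replicate 1 (0.0126), Cox4i2 between the mutants without compound mutant replicate 3 (−0.153 to 0.574 over such fits) and Cox7a1 in Cilk1-/- without wild-type replicate 4 (−0.00636 to 0.138). The cause was not tested. Depth is unknown and does not enter these values.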
